A study of Homo sapiens with 9 samples.

Results

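Mitosis and spindle genes encode the kinases, cyclins, checkpoint proteins, kinetochore parts, motors and cytokinesis factors with which a dividing cell separates its chromosomes. The 36 genes described here were listed by symbol, with earlier results of these data known. All 36 were found among the 63677 Ensembl identifiers of each count file, and all 36 were among the 18237 genes tested. The samples were cultures of HuH-7, a human hepatocellular carcinoma line, and ribosomal RNA-depleted total RNA of each was sequenced on an Ion Torrent Proton instrument, with 1 library for each of 9 conditions. The study asked how gene expression differs between models of liver toxicity. The cells were untreated (control), or received 10 mM acetaminophen, exosomes from 1 ml of serum per fixed number of cells, or 2 mM caffeine. Others received the same acetaminophen dose together with the exosomes or with the caffeine. The last group of cultures received 5 µM arsenic, 15 µM arsenic, or 5 µM arsenic together with 5 µM copper. All libraries come from this 1 tumour line, and the labels name neither the arsenic compound, nor how long cells were exposed, nor whose serum was used.

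As background, entry into mitosis is driven by the kinase CDK1 bound to A- and B-type cyclins, together with the Polo kinase PLK1 and the Aurora kinases. The spindle checkpoint holds the cell until every kinetochore is attached, after which CDC20 and the anaphase-promoting complex (APC/C) target cyclin B and securin for destruction and the chromosomes part. Transcripts of most of these genes are low in resting cells and highest late in the cell cycle, and the DREAM complex, MYBL2 (B-MYB) and FOXM1 are known to control them through CCAAT boxes and the cell cycle genes homology region (CHR) close to the start of transcription. Adult hepatocytes rarely divide, so these genes mark growth of tumour cells such as HuH-7. In RNA from whole cultures, fewer cells in mitosis and less RNA per mitotic cell cannot be told apart.

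The promoters are shown because genes of unlike function share these elements. RefSeq held the window from 250 bases before to 50 bases after the start for 31 of the 36 genes, on build GRCh38.p14, whereas the counts were made on GRCh37. The CHR was searched as TTTGAA or TTCGAA and the CCAAT box as CCAAT, on both strands, and a match of the first can share at most 1 base with a match of the other. A CHR was present in 23 of the 31 windows (74.2%), against 16.6% of all 27305 windows in the table. Within 50 bases of the start it was present in 18 of the 31 (58.1%), against 5.05% of all. A CCAAT box was present in 25 (80.6%), against 35.7% of all, and both motifs stood in 19 windows (61.3%), against 6.58%. The 120 bases before the start are printed for 6 genes, with motif matches in capitals. They are PLK1 at chr16:23678769-23678888 (+ strand), CCNB2 at chr15:59105026-59105145 (+ strand), CDC20 at chr1:43358861-43358980 (+ strand), CCNB1 at chr5:69167030-69167149 (+ strand), KIF20A at chr5:138178992-138179111 (+ strand) and ANLN at chr7:36389742-36389861 (+ strand).
PLK1: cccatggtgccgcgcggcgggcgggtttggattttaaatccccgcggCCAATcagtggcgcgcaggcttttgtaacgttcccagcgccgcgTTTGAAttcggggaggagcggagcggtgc
CCNB2: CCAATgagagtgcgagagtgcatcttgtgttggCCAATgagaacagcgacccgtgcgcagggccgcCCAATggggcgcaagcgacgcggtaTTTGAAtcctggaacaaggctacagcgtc
CDC20: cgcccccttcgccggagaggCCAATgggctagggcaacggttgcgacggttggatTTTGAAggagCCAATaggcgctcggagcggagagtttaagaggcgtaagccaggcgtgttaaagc
CCNB1: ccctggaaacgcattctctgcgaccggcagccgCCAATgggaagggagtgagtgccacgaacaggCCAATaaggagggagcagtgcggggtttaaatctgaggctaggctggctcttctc
KIF20A: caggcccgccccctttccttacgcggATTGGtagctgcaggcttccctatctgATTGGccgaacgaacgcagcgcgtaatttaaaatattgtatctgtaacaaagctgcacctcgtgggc
ANLN: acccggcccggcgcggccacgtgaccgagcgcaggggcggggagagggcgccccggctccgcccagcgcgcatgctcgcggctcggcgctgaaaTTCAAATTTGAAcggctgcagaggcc
PLK1, CCNB2 and CDC20 carry both motifs in this stretch, CCNB1 and KIF20A carry the CCAAT box alone, and ANLN carries a CHR on each strand and no CCAAT box. A match describes these letters and not a bound factor.

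Depth on genes ranged from 658725 counts (acetaminophen with exosomes) to 8227906 counts (caffeine), and the control had 951816. Levels are given as CPM, read counts per library size after scaling by the trimmed mean of M values (TMM), and they can be compared between libraries for 1 gene but between genes only per kilobase of transcript. All 18 hepatocyte-type markers had counts in every library (summed level 14656 CPM with 15 µM arsenic to 35496 CPM with exosomes), whereas the endothelial marker PECAM1 was at 0 in all 9 and the 10 endothelial, stellate and fibroblast markers summed to 30.8 to 78.5 CPM. Of 15 blood cell markers, the exosome library held counts for 6, with LYZ the highest among them at 182 CPM and a sum of 245 CPM, against 293 CPM in the control. The share of counts on small nucleolar RNAs was 35.5% with 5 µM arsenic and 11.5% with acetaminophen alone, against 3.41% to 8.35% in the other 7 libraries. In the 5 µM arsenic and acetaminophen libraries, log2 levels relative to the mean over all libraries were lower for GC-rich genes. Pearson's r with GC content was -0.39 and -0.48 across 17741 genes, which are not independent, against 0.15 in the control. In the other libraries it ran from -0.10 (exosomes) to 0.31 (arsenic with copper), with 0.29 in acetaminophen with caffeine. No condition was replicated. Intervals of levels and ratios are 95% counting intervals, and because the reads are PCR copies without molecular identifiers these intervals cover counting error only and no variation between cultures.

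Every one of the 36 genes was read in every library. The lowest count was 5, for the centromeric histone CENPA in the control. In the control the highest levels per kilobase were those of CDC20 (137 CPM per kilobase), UBE2C (134) and AURKB (125), whose counting intervals overlapped one another and lay above that of the next gene, CCNB1 (87.6). The lowest were CENPA (3.32) and CENPE (1.12). From CCNB1 downward the interval of each gene overlapped that of the next, so these intervals do not settle the order of neighbours. Per kilobase, 34 of the 36 lay above the median protein-coding gene of the control and 11 lay among the highest 10% of such genes. The genes also had less GC in their transcripts than other coding genes, with a median of 42.6% and a range of 35.3% to 57.9%, against a median of 48.8%.

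Across libraries the summed level of the 36 genes was 3080.0 CPM in the control, 3937 with exosomes, 2225 with caffeine, 2830.1 with acetaminophen, 1964 with acetaminophen and exosomes, and 1903 with acetaminophen and caffeine. The arsenic libraries gave the highest and the lowest sum, at 4304 CPM with 5 µM and 1751 CPM with 15 µM, and 3518 CPM with arsenic and copper. The library with 5 µM arsenic was the highest of all 9 for 16 genes, and the library with 15 µM arsenic was the lowest for another such number, 16. Acetaminophen with exosomes and acetaminophen with caffeine were each the lowest library for 8. Such counts over all tested genes are not given here, so they are not read as a trait of the 36. The ratio of a gene's highest to its lowest level ran from 2.53 (ANLN) to 12.7 (DLGAP5), with a median of 5.76. Over the 9 libraries, the log2 level of a gene followed the mean of the other 35 with a median Pearson's r of 0.70, highest for BUB1B (0.95) and lowest for PTTG1 (-0.31). These r are a description, since the libraries differ in depth and make-up and all genes of a library share them.

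**Figure D1:**
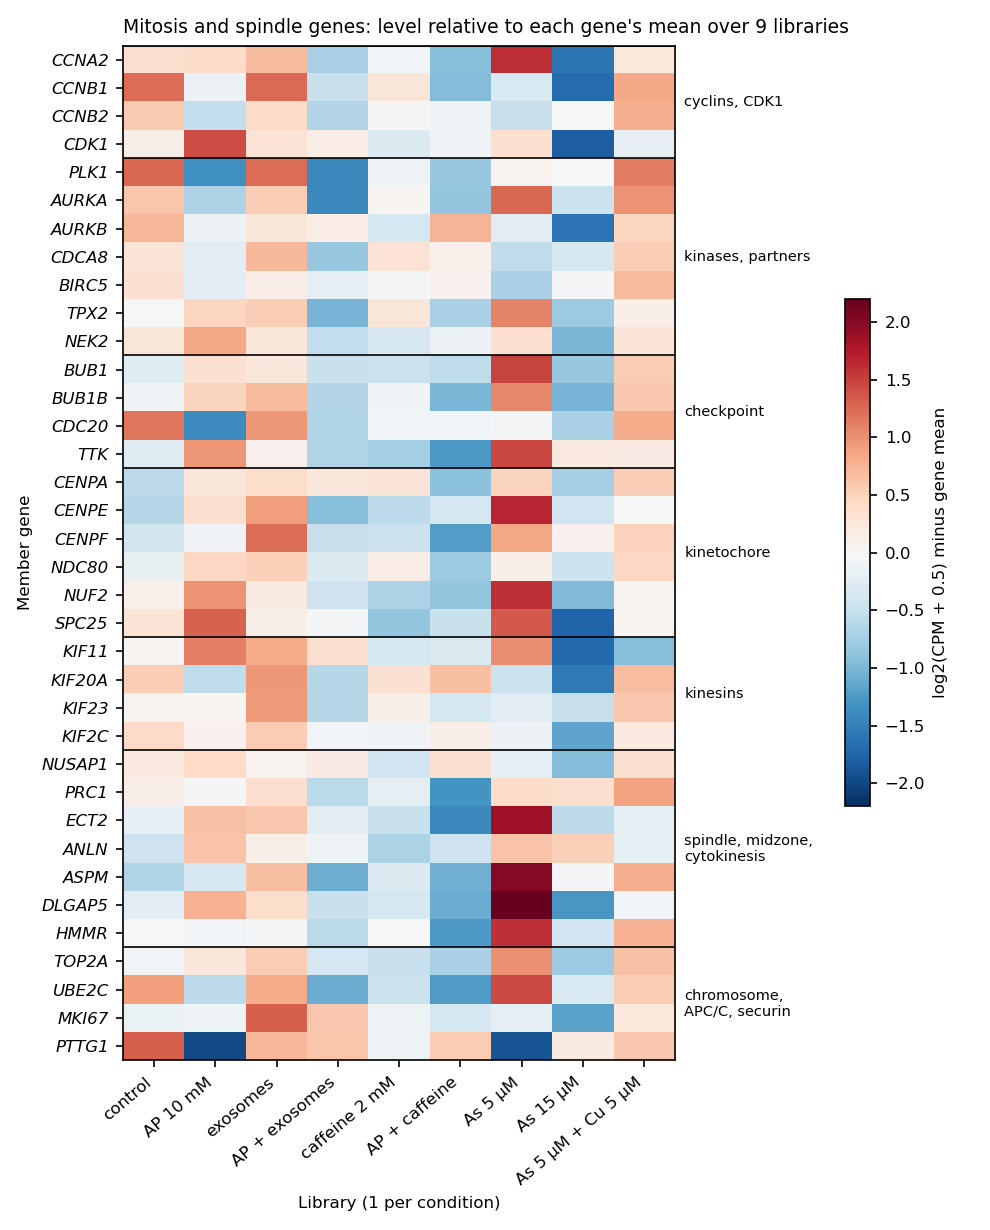
Level of each of the 36 genes (rows, grouped by role) in each of the 9 libraries (columns), as log2(CPM + 0.5) minus the mean of that gene over the libraries. AP is acetaminophen, As arsenic and Cu copper; red is above and blue below the gene's mean. The column for 5 µM arsenic is the highest for 16 genes and that for 15 µM arsenic the lowest for 16, counts given without a share over all tested genes. PTTG1 is lowest with acetaminophen and with 5 µM arsenic.

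In the paragraphs on the roles, the 3 levels without acetaminophen are always those of the control, exosome and caffeine libraries, the 3 with it are those of acetaminophen alone, with exosomes and with caffeine, and the 3 with arsenic are those at 5 µM, at 15 µM and at 5 µM with copper. Of the mitotic cyclins and their kinase, cyclin B1, which carries CDK1 into mitosis, was lower in each acetaminophen library than in its partner. CCNB1 stood at 190.1, 192 and 97.7 CPM without acetaminophen, at 73.7, 57.2 and 41.7 CPM with it, and at 64.2, 24.7 and 145 CPM with arsenic. No counting interval of the 3 levels with acetaminophen overlapped one of the 3 without it, and the level at 15 µM arsenic, 19.3 to 31.3 CPM by its interval, was the lowest of all. CDK1, the catalytic partner of these cyclins, went a different way. CDK1 stood at 64.6, 73.5 and 47.2 CPM without acetaminophen, at 161, 66.1 and 56.2 CPM with it, and at 76.98, 16.5 and 52.3 CPM with arsenic. Its highest level was in acetaminophen alone, above every other library by its interval (141 to 183 CPM), and its lowest again at 15 µM arsenic (12.1 to 22.00 CPM). CCNA2 stood at 78.2, 99.7 and 58.3 CPM without acetaminophen, at 80.7, 36.9 and 31.9 CPM with it, and at 189.7, 20.1 and 71.6 CPM with arsenic. Cyclin A2, which acts from S phase into early mitosis, was thus highest at 5 µM arsenic and lowest at 15 µM. CCNB2, the second B-type cyclin, ranged from 21.6 CPM (acetaminophen with exosomes) to 58.6 CPM (arsenic with copper).

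Among the mitotic kinases and their partners, PLK1, which acts at centrosomes, kinetochores and in cytokinesis, was split by acetaminophen. PLK1 stood at 175, 171 and 68.3 CPM without acetaminophen, at 28.1, 26.7 and 40.5 CPM with it, and at 76.98, 71.7 and 159.9 CPM with arsenic. The highest level with acetaminophen had an interval of 35.3 to 46.3 CPM and the lowest without it one of 62.9 to 74.1 CPM, so the 2 sets did not overlap. AURKA, which matures centrosomes and builds the spindle poles, split the same way. AURKA stood at 106, 100.3 and 71.4 CPM without acetaminophen, at 42.8, 25.4 and 38.3 CPM with it, and at 166, 49.5 and 138 CPM with arsenic. With arsenic its level stood above that of the control at 5 µM and below it at 15 µM. TPX2, the spindle protein that activates Aurora A, kept no such order. TPX2 stood at 198, 291 and 241 CPM without acetaminophen, at 277, 97.9 and 121 CPM with it, and at 424, 114 and 221 CPM with arsenic. It was lowest in acetaminophen with exosomes and highest at 5 µM arsenic.

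AURKB, the kinase of the chromosomal passenger complex, which corrects faulty attachments, was high in the control and in acetaminophen with caffeine. AURKB stood at 157, 113 and 71.96 CPM without acetaminophen, at 86.3, 106 and 158 CPM with it, and at 79.1, 30.1 and 131 CPM with arsenic. Its interval at 15 µM arsenic, 24.03 to 37.3 CPM, lay below that of every other library. BIRC5 (survivin), another subunit of this complex, varied less. BIRC5 stood at 119.6, 105 and 92.1 CPM without acetaminophen, at 80.7, 81.4 and 101 CPM with it, and at 57.4, 91.8 and 154 CPM with arsenic. CDCA8 (borealin), the third one measured, ranged from 30.5 CPM (acetaminophen with exosomes) to 90.5 CPM (exosomes). NEK2, which separates the centrosomes, ranged from 13.6 CPM (15 µM arsenic) to 49.8 CPM (acetaminophen).

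The spindle checkpoint genes divided. CDC20, the APC/C activator that the checkpoint restrains, was high in the control, with exosomes and with arsenic and copper. CDC20 stood at 243, 207 and 102 CPM without acetaminophen, at 40.01, 67.4 and 102 CPM with it, and at 105, 65.3 and 189 CPM with arsenic. Its level was the same in caffeine with and without acetaminophen. BUB1B (BUBR1), an inhibitor of CDC20, had the pattern closest to the mean of the other genes. BUB1B stood at 41.5, 71.96 and 42.01 CPM without acetaminophen, at 61.8, 27.98 and 21.7 CPM with it, and at 92.7, 21.5 and 66.4 CPM with arsenic. TTK (MPS1), the kinase that starts checkpoint signalling, was highest at 5 µM arsenic and next in acetaminophen alone. TTK stood at 27.02, 34.9 and 19.2 CPM without acetaminophen, at 64.6, 20.3 and 13.2 CPM with it, and at 91.02, 37.7 and 37.1 CPM with arsenic. BUB1, a checkpoint kinase at kinetochores, ranged from 41.96 CPM (15 µM arsenic) to 212 CPM (5 µM arsenic). BUB1B stood above and CDC20 below the control at 5 µM arsenic and in acetaminophen alone, although for BUB1B in acetaminophen the interval overlapped that of the control. Their transcripts have 43.2% and 57.9% GC, and levels in these libraries moved with GC content. With the trends of GC content and length over all genes removed, neither was apart from the control at 5 µM arsenic by the rule given below. In acetaminophen alone the log2 ratios were then 0.05 for BUB1B and -1.69 for CDC20.

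Of the centromere and kinetochore genes, CENPF, a large kinetochore protein of late cell cycle cells, was highest with exosomes. CENPF stood at 55.96, 174 and 52.9 CPM without acetaminophen, at 70.2, 52.1 and 31.3 CPM with it, and at 134, 78.9 and 105 CPM with arsenic. CENPE, the kinesin that carries chromosomes to the spindle equator, was highest at 5 µM arsenic. CENPE stood at 9.65, 29.3 and 9.95 CPM without acetaminophen, at 19.7, 7.63 and 11.5 CPM with it, and at 49.3, 11.1 and 15.2 CPM with arsenic. CENPA stood at 4.82, 9.85 and 9.13 CPM without acetaminophen, at 9.12, 8.90 and 3.77 CPM with it, and at 10.6, 4.30 and 11.1 CPM with arsenic. CENPA, the histone that marks centromeres, rested on 5 to 78 counts, and its interval in the control ran over 1.57 to 11.3 CPM. NDC80, NUF2 and SPC25 belong to the complex that holds microtubules at the kinetochore. NDC80 ranged from 16.02 CPM (acetaminophen with caffeine) to 40.6 CPM (exosomes). NUF2 ranged from 6.10 CPM at 15 µM arsenic to 39.1 CPM at 5 µM, and SPC25 from 5.38 CPM to 50.6 CPM at the same doses.

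**Figure D2:**
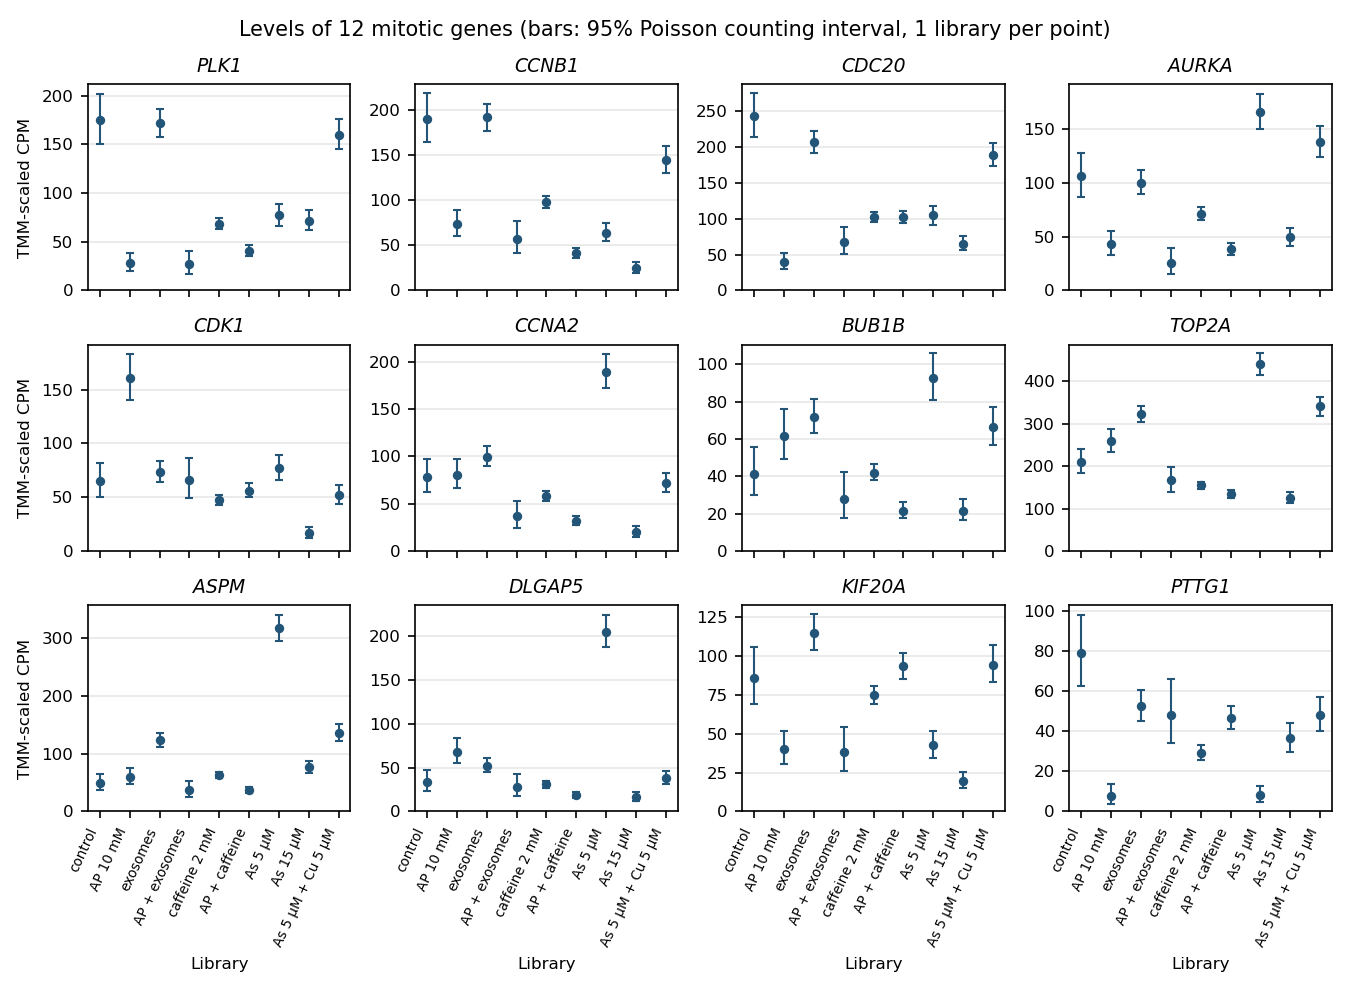
TMM-scaled CPM (vertical axis, from 0) of 12 of the genes in each of the 9 libraries (horizontal axis; AP is acetaminophen, As arsenic, Cu copper), 1 point per library with its 95% Poisson counting interval. PLK1, CCNB1 and AURKA lie lower in each library with acetaminophen than in its partner, while ASPM, DLGAP5 and CCNA2 reach their highest level at 5 µM arsenic.

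The kinesin motors followed no single order. KIF20A, needed at the central spindle for cytokinesis, was low in acetaminophen alone, with exosomes and in both arsenic libraries without copper. KIF20A stood at 85.9, 115 and 74.8 CPM without acetaminophen, at 40.01, 38.2 and 93.7 CPM with it, and at 42.5, 19.7 and 94.6 CPM with arsenic. With caffeine its level with acetaminophen was not below that without it. KIF23, a motor of the centralspindlin complex, was highest with exosomes. KIF23 stood at 39.6, 72.3 and 40.95 CPM without acetaminophen, at 38.6, 24.2 and 28.6 CPM with it, and at 31.5, 26.2 and 57.1 CPM with arsenic. KIF11 (Eg5), which pushes the spindle poles apart, was the only gene of the 36 that stood at least 2 times below the control with arsenic and copper. KIF11 stood at 27.98, 47.5 and 20.5 CPM without acetaminophen, at 58.3, 34.3 and 21.3 CPM with it, and at 54.9, 7.89 and 13.7 CPM with arsenic. KIF2C, a kinesin that shortens microtubules at the centromere, ranged from 40.5 CPM (15 µM arsenic) to 134 CPM (exosomes).

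Of the 7 spindle, midzone and cytokinesis factors, 5 had their highest level at 5 µM arsenic (ASPM, DLGAP5, HMMR, ANLN and ECT2). Such a share over all tested genes is not given, so this count is not read as a trait of the role. These 5 transcripts have 36.7% to 40.03% GC, and levels in that library were lower for GC-rich genes. With GC and length trends removed, only ASPM and DLGAP5 of these stayed apart from and above the control at 5 µM arsenic. ASPM, which focuses the spindle poles, was more than 6 times as high there as in the control. ASPM stood at 49.2, 123 and 63.3 CPM without acetaminophen, at 60.4, 36.9 and 37.3 CPM with it, and at 317, 76.4 and 136 CPM with arsenic. DLGAP5 (HURP), which stabilises microtubules near the chromosomes, had the widest range of the 36. DLGAP5 stood at 33.8, 52.3 and 30.8 CPM without acetaminophen, at 68.1, 27.98 and 18.5 CPM with it, and at 205, 16.1 and 37.8 CPM with arsenic. HMMR, a spindle assembly factor, had its lowest level in acetaminophen with caffeine. HMMR stood at 17.4, 17.02 and 17.7 CPM without acetaminophen, at 16.8, 11.4 and 6.97 CPM with it, and at 54.01, 12.9 and 30.05 CPM with arsenic. ANLN (anillin), the scaffold of the cleavage furrow, varied least, and was high in acetaminophen alone and with both doses of arsenic alone. ANLN stood at 114, 170.2 and 95.7 CPM without acetaminophen, at 241, 146 and 113 CPM with it, and at 242, 223 and 135 CPM with arsenic. NUSAP1, which bundles spindle microtubules, was the only gene with a higher level in each acetaminophen library than in its partner. NUSAP1 stood at 104, 94.4 and 66.3 CPM without acetaminophen, at 121, 102 and 117 CPM with it, and at 76.98, 46.3 and 114 CPM with arsenic. Its intervals overlapped in the pairs without other treatment and with exosomes, and did not in the pair with caffeine. PRC1, which crosslinks the central spindle, ranged from 50.9 CPM (acetaminophen with caffeine) to 236 CPM (arsenic with copper). ECT2, which activates RhoA for the furrow, ranged from 23.6 CPM in the same library to 232 CPM at 5 µM arsenic.

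Of the remaining 4 genes, TOP2A, which untangles sister chromosomes, was lowest at 15 µM arsenic and highest at 5 µM. TOP2A stood at 210.4, 322 and 155 CPM without acetaminophen, at 259, 167 and 133 CPM with it, and at 439.8, 126 and 341 CPM with arsenic. MKI67 (Ki-67), the proliferation mark that coats mitotic chromosomes, was highest with exosomes. MKI67 stood at 128, 353 and 131 CPM without acetaminophen, at 132, 215 and 108 CPM with it, and at 123, 62.04 and 167 CPM with arsenic. UBE2C, the ubiquitin-conjugating enzyme of the APC/C, was lower with acetaminophen in each pair. UBE2C stood at 123, 115 and 47.2 CPM without acetaminophen, at 43.5, 30.5 and 27.1 CPM with it, and at 179, 51.6 and 95.7 CPM with arsenic. PTTG1 (securin), which holds separase inactive until anaphase, departed most from the rest. PTTG1 stood at 79.1, 52.6 and 29.1 CPM without acetaminophen, at 7.72, 48.3 and 46.7 CPM with it, and at 8.08, 36.6 and 48.2 CPM with arsenic. It rested on 11 counts in acetaminophen alone and 19 at 5 µM arsenic, with intervals of 3.85 to 13.8 and 4.87 to 12.6 CPM that lay below those of all other libraries.

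Acetaminophen was compared in 3 pairs of libraries that share no library. PLK1, AURKA, CCNB1, CCNB2, CDCA8, KIF23, PRC1, UBE2C and HMMR were lower with it in all 3 (9 of 36, against 15.1% of all tested genes), and NUSAP1 alone was higher in all 3, against 12.7% of all tested genes. Some of these differences lay within counting error, as for HMMR (control 17.4 CPM, acetaminophen 16.8 CPM) and KIF23 (39.6 and 38.6 CPM). A gene was counted as apart where the ratio, with 0.5 counts added, was at least 2 either way and its exact conditional binomial interval did not hold 1. Against the control, 8 of 36 genes were apart and lower with acetaminophen, against 12.1% of all tested genes, and 5 were apart and higher, a share near the 13.1% of all. The lower ones were PLK1, AURKA, CCNB1, CCNB2, CDC20, KIF20A, UBE2C and PTTG1, and the higher ones CDK1, KIF11, TTK, ANLN and DLGAP5. PLK1 was 6.22 times lower and CDC20 6.08 times lower, while CDK1 was 2.49 times higher.

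With exosomes on both sides, 15 of 36 were apart and lower with acetaminophen, against 5.37% of all tested genes, and 0 were apart and higher, against 5.15%. These 15 came from every role. They held PLK1, AURKA, TPX2 and CDCA8 among the kinases and partners, all 3 cyclins (CCNA2, CCNB1, CCNB2), BUB1B and CDC20 of the checkpoint, CENPE and CENPF of the kinetochore, the motors KIF20A and KIF23, the spindle factor ASPM, and UBE2C. PLK1 was 6.42 times lower, with 21 counts in the shallow library that held both treatments (ratio 0.156, interval 0.0957 to 0.240). The median log2 ratio of the 36 was -0.87, beside -0.075 over all tested genes. With TMM 1 of the 36 ratios lay above 0, and with DESeq2's size factors 6 did, with 14 apart and lower.

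With caffeine on both sides, 4 were apart and lower (CCNB1, CENPA, PRC1 and HMMR), against 13.1% of all tested genes, and AURKB was the 1 apart and higher, against 12.6%. These shares lie near or below the background. CCNB1 was apart and lower in all 3 pairs, and PLK1, AURKA, CCNB2, CDC20, KIF20A and UBE2C in 2 of the 3. The share of all tested genes that did so is not given, so this is not read as a trait of these genes. The median log2 ratio was -0.24 here and 0.26 against the control.

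In the additive edgeR quasi-likelihood fit over all 9 libraries, with Benjamini-Hochberg adjustment over the 18237 genes, 0 of the 36 passed an adjusted p of 0.05 for acetaminophen. Of all genes 4, or 0.0219%, passed. An unadjusted p under 0.05 was reached by 5 members, all lower, and by 5.35% of all genes. PLK1 had the smallest p, with a log2 fold change of -2.01 (SE 0.608, adjusted p 0.321 by edgeR). The others were CCNB1 (-1.44, adjusted p 0.703), CDC20 (-1.40, 0.809), UBE2C (-1.39) and AURKA (-1.38). Without the 5 µM arsenic library PLK1 passed (adjusted p 0.0202), the only change of call in a member when any 1 library was left out, and DESeq2 called 0 members (PLK1 adjusted p 0.0891). Counts were simulated with these libraries' sizes and the common dispersion of the fit for every gene. On them this term recovered 1% of genes with a 4-fold change and 72.5% with a 16-fold change (log2 fold changes of 2 and 4). Spread that differs between genes and differences in library make-up were not simulated.

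**Figure D3:**
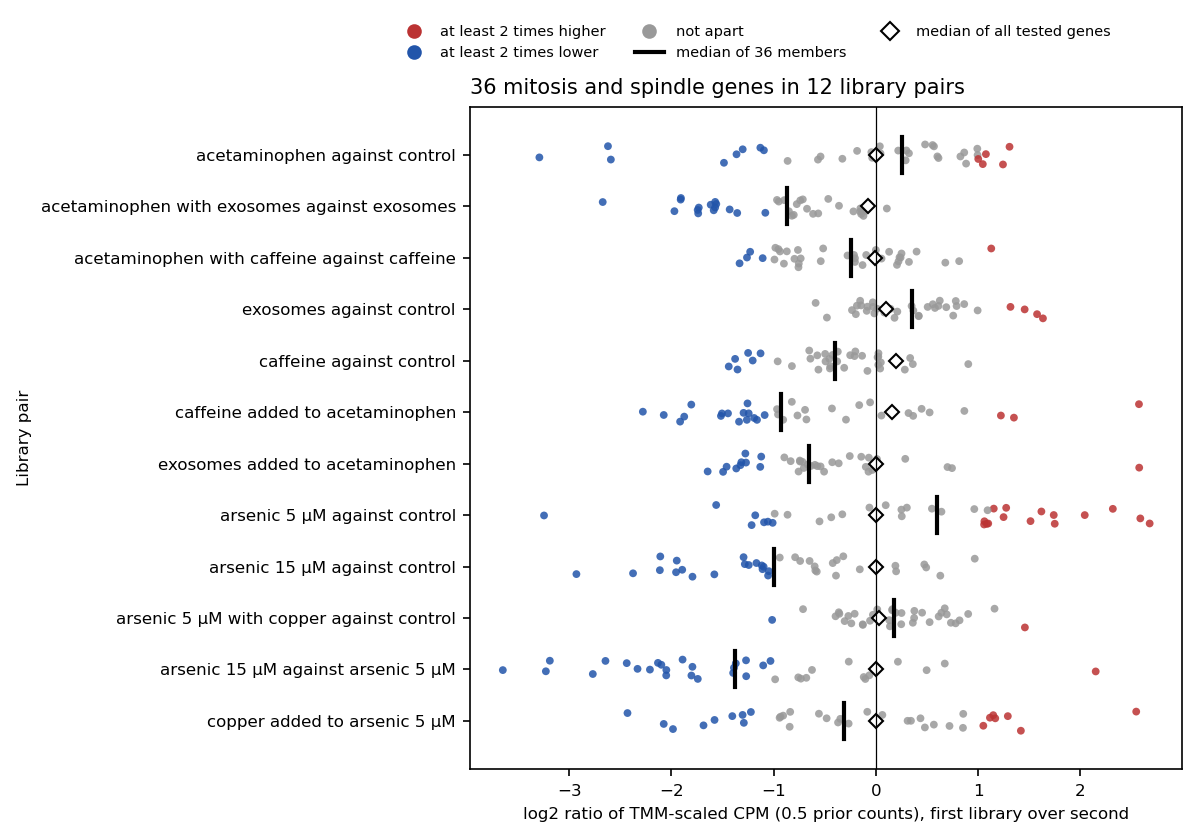
The log2 ratio (horizontal axis) of each of the 36 genes in each of 12 library pairs (vertical axis), 1 point per gene; red and blue points are apart and higher or lower, the bar is the median of the 36 and the diamond the median of all tested genes. In acetaminophen with exosomes against exosomes 15 points are blue and 0 red, and in 15 µM against 5 µM arsenic 23 are blue and 1 is red.

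Arsenic was compared with the control at each dose, and both comparisons share that control. At 5 µM, 15 of 36 genes were apart and higher, against 16.5% of all tested genes, and 7 were apart and lower, against 14.8%. The higher ones were BUB1, BUB1B and TTK of the checkpoint, CENPE, CENPF, NUF2 and SPC25 of the kinetochore, the spindle and cytokinesis factors ASPM, DLGAP5, ECT2, HMMR and ANLN, and CCNA2, TOP2A and TPX2. ASPM was 6.44 times and DLGAP5 6.06 times the control. The lower ones were PLK1, CCNB1, CCNB2, CDC20, BIRC5, KIF20A and PTTG1, of which PTTG1 was 9.79 times lower and CCNB1 2.96 times lower.

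At 15 µM, 18 of 36 were apart and lower, against 14.2% of all tested genes, and 0 were apart and higher, against 16.7%. They were CCNA2, CCNB1 and CDK1, the kinases PLK1, AURKA, AURKB and NEK2, CDC20, UBE2C and PTTG1, the motors KIF11, KIF20A and KIF2C, NUF2 and SPC25, NUSAP1 and DLGAP5, and MKI67. CCNB1 was 7.68 times lower than in the control (ratio 0.130, interval 0.0975 to 0.172), AURKB 5.22 times and CDK1 3.92 times lower. The median log2 ratio was -0.99, beside 0.60 at 5 µM. With the trends of GC content and length over all genes removed, these medians were -0.80 and 0.16, and 19 of the 36 lay above 0 and 17 below 0 at 5 µM. PLK1, AURKA, CCNA2, CCNB1, CDC20, KIF20A and UBE2C were also among the 15 that were lower with acetaminophen and exosomes, a comparison that shares no library with this one. These 7 are 46.7% of the 15 and 38.9% of the 18, beside 18 of all 36 that were lower at 15 µM and 15 of all 36 that were lower with acetaminophen and exosomes, so these shares lie near those over all 36.

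Between the doses, 23 of 36 were apart and lower at 15 µM than at 5 µM, against 17.5% of all tested genes, and PTTG1 was the 1 apart and higher, against 19.6%. DLGAP5 was 12.7 times lower, CCNA2 9.45 times and SPC25 9.41 times lower at the higher dose. PTTG1 was 4.53 times higher. The median log2 ratio was -1.38, beside 0 over all tested genes.

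With copper added to 5 µM arsenic, few of the genes were apart from the control at 2 times. The median log2 ratio of all members to the control was 0.18, beside 0.60 for 5 µM arsenic alone. With the trends of GC content and length removed, these medians were 0.18 and 0.16. At 1.5 times, 9 members were apart from the control, and the share of all tested genes at that fold is not given. Against the control 1 gene was apart and higher (ASPM), against 9.37% of all tested genes, and 1 apart and lower (KIF11), against 7.0%. Against 5 µM arsenic alone, 9 were apart and lower with copper (CCNA2, CENPE, KIF11, TTK, ECT2, ASPM, DLGAP5, NUF2 and SPC25), against 13.7%, and 7 apart and higher (PLK1, CCNB1, CCNB2, CDCA8, BIRC5, KIF20A and PTTG1), against 16.6%. These comparisons share the 5 µM or the control library with the ones above, so each is given by its own values. PTTG1 stood at 79.1 CPM in the control, 8.08 CPM with arsenic and 48.2 CPM with arsenic and copper. DLGAP5 stood at 33.8, 205 and 37.8 CPM in the same order.

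In the edgeR fit, whose arsenic term compares all 3 arsenic libraries with the level fitted without arsenic, 0 of the 36 passed, while 0.494% of all genes did. CCNB1 had the smallest p of the 36 (log2 fold change -1.33, adjusted p 0.584). No member reached an unadjusted p under 0.05, which 9.16% of all genes did, and DESeq2 also called 0 members. In the simulation this term recovered 0% of genes with a 4-fold change and 52% with a 16-fold change.

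Exosomes against the control left 4 genes apart and higher (CENPE, CENPF, ASPM and MKI67), against 3.73% of all tested genes, and 0 apart and lower, against 1.4%. MKI67 was 2.75 times and CENPF 3.12 times the control. Their transcripts are long (8612 to 12678 bases), and across the 36 genes the log2 ratio of this pair followed log2 transcript length (Pearson's r 0.81 across genes). With the trends of GC content and length over all genes removed, 0 members were apart, and the part of transcript length in these ratios was not tested further. Added to acetaminophen, exosomes left 10 apart and lower (BUB1B, CCNA2, CDK1, CENPE, TPX2, TTK, NEK2, DLGAP5, NUF2 and SPC25), against 9.03%, and PTTG1 apart and higher, against 10.2%, with 5 ratios above 0 by TMM and 9 by DESeq2's size factors. The edgeR term for exosomes called 0 members and 0.0% of all genes, with 0 members and 113 genes (0.620% of all) at an unadjusted p under 0.05.

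Caffeine against the control left 6 genes apart and lower (PLK1, AURKB, CDC20, UBE2C, SPC25 and PTTG1), against 8.5% of all tested genes, and 0 apart and higher, against 12.0%. PTTG1 was 2.72 times and PLK1 2.56 times lower, both in the deepest library. Ratios above 0 numbered 10 with TMM and 4 with DESeq2's size factors. The median log2 ratio was -0.40, beside 0.20 over all tested genes. Added to acetaminophen, caffeine left 16 apart and lower, against 14.8%, and 3 apart and higher (CDC20, KIF20A and PTTG1), against 19.0%. In that comparison CDK1 stood at 161 CPM with acetaminophen and 56.2 CPM with both, and TTK at 64.6 and 13.2 CPM. The edgeR term for caffeine called 0 members, with 0.0823% of all genes called, and TTK was the 1 member with an unadjusted p under 0.05, against 7.31% of all genes (log2 fold change -1.51, adjusted p 0.677). DESeq2 called 0 members for either term.

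GC content moved with several of these results. Across the 36 genes, the log2 ratio went down with GC content in acetaminophen against control (Pearson's r -0.74) and in 5 µM arsenic against control (-0.70). It did so far less at 15 µM arsenic (-0.31) and in acetaminophen with exosomes against exosomes (-0.19). It went up with GC content where acetaminophen alone or 5 µM arsenic alone was the denominator of the ratio: with caffeine added to acetaminophen (0.71), copper added to arsenic (0.67), exosomes added to acetaminophen (0.60) and 15 against 5 µM arsenic (0.53). The 15 genes apart and higher at 5 µM arsenic had a median GC content of 40.03%, and the 7 lower ones 49.3%. With log2 transcript length the log2 ratio went up in every comparison with the control. Pearson's r was 0.81 for exosomes, 0.55 for caffeine, 0.53 for 15 µM arsenic and 0.52 for arsenic with copper. It was 0.48 for 5 µM arsenic and 0.41 for acetaminophen. In the control, log2 levels relative to the mean over all libraries were lower for longer transcripts (r -0.29 across 17741 genes). The ratios were therefore also computed with the trends of GC content and transcript length over 17741 genes removed.

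**Figure D4:**
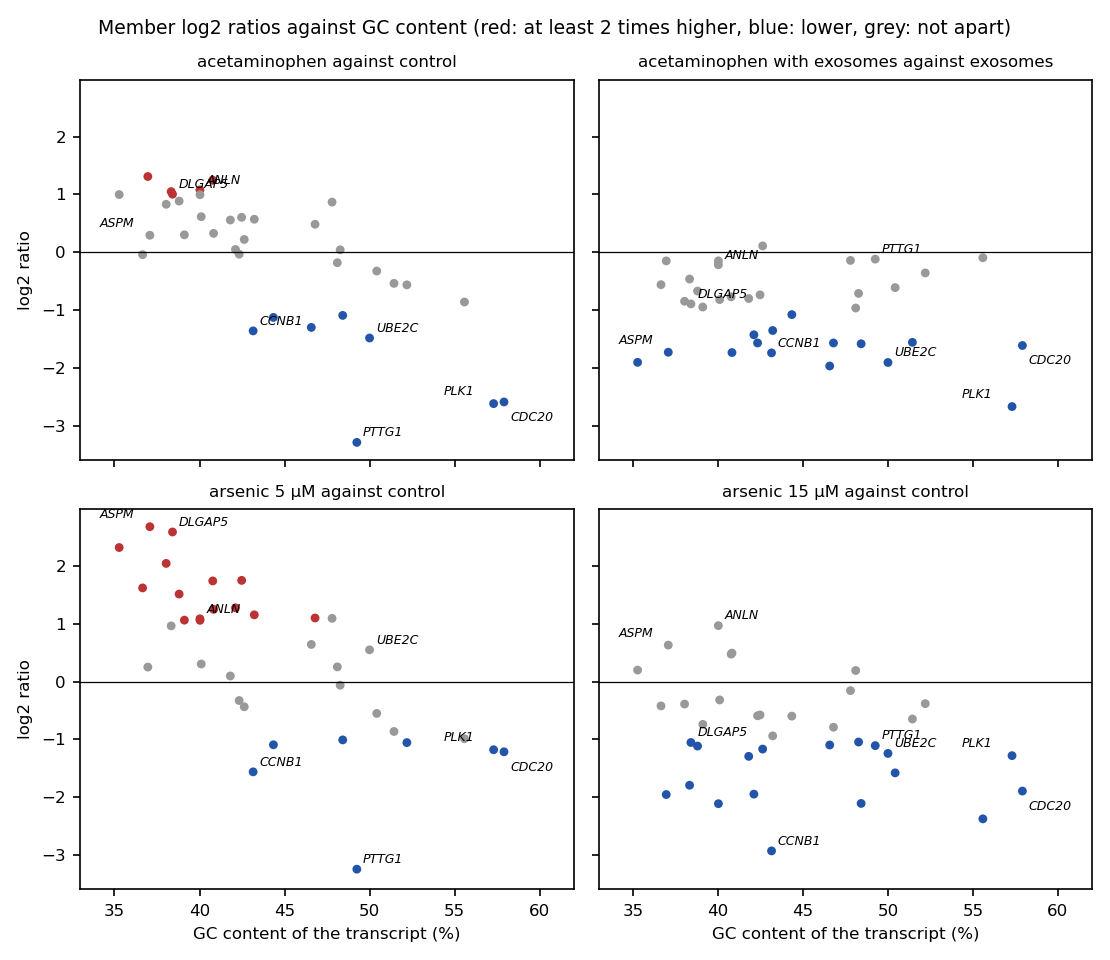
The log2 ratio (vertical axis) of each of the 36 genes against the GC content of its transcript in percent (horizontal axis) in 4 library pairs, 1 point per gene; red and blue points are apart and higher or lower. The points go down from left to right in the 2 panels on the left (acetaminophen and 5 µM arsenic against control), with r of -0.74 and -0.70.

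With the trends removed, acetaminophen against control left 7 genes apart and lower, against 7.31% of all genes, and 0 apart and higher, against 7.77%. The 7 were PLK1, AURKA, CCNB1, CCNB2, CDC20, KIF20A and PTTG1, all of them among the 8 before. PLK1 then had a log2 ratio of -1.91, in place of -2.62, and CDK1 0.69 in place of 1.31. The median of the 36 turned from 0.26 to -0.28. With exosomes on both sides 14 stayed apart and lower, against 4.17% of all genes, and 14 of the 36 had a ratio below 0 in all 3 acetaminophen pairs, against 17.8% of 17741 genes treated the same way.

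For arsenic, the genes apart and higher at 5 µM went from 15 to 8, against 12.6% of all genes, with 6 of the 8 among the 15 and CENPA and UBE2C added, and those apart and lower from 7 to 3 (CCNB1, CCNB2 and PTTG1), against 11.5%. ASPM had a log2 ratio of 1.18 in place of 2.68, and DLGAP5 1.80 in place of 2.59. At 15 µM 13 were apart and lower, against 13.4% of all genes, 12 of them among the 18 before. Between the doses 23 were apart and lower, against 16.8%, 21 of them among the 23 before. For caffeine against control 3 were apart and lower, against 9.24%. The part of library make-up in the counts before removal was not tested beyond this.

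**Figure D5:**
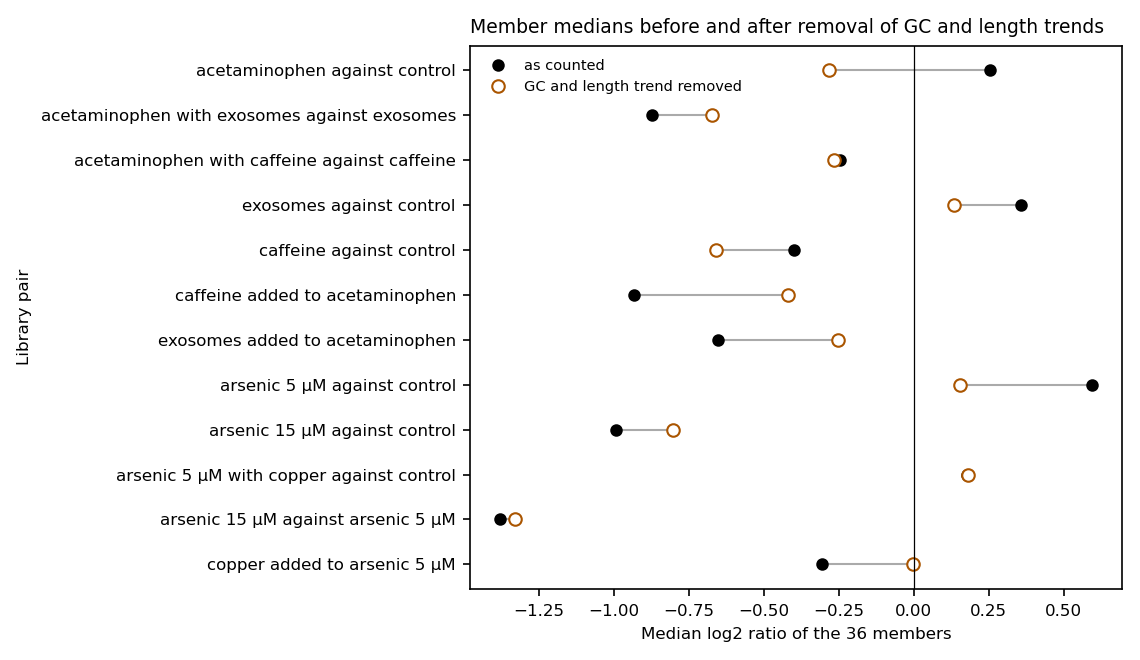
Median log2 ratio of the 36 genes (horizontal axis) in each of 12 library pairs (vertical axis), as counted (filled points) and with the trends of GC content and transcript length over all genes removed (open points). The 2 values lie on opposite sides of 0 for acetaminophen against control alone (0.26 and -0.28), and differ little between the arsenic doses (-1.38 and -1.33).

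Other genes of the pathway were listed beside the 36. None of 74 further mitotic genes, 17 subunits of the APC/C and its activators or 22 regulators of mitotic transcription passed the edgeR test for any of the 4 terms. DESeq2 also called 0 of them, and over the 4 terms together 7 of 296, 3 of 68 and 4 of 88 tests (2.36%, 4.41% and 4.55%) had an unadjusted p under 0.05 by edgeR. For all genes these shares were 5.35%, 0.620%, 7.31% and 9.16% for acetaminophen, exosomes, caffeine and arsenic. Of the 74, 27 were apart and lower, against 14.2% of all tested genes, and 4 apart and higher, against 16.7%, at 15 µM arsenic against control, with a median log2 ratio of -0.64. Their lowest was SKA3, a kinetochore gene, at 0.717 CPM beside 13.5 CPM in the control, and their highest CENPL at 25.5 beside 4.82 CPM. At 5 µM, 21 of the 74 were apart and higher, against 16.5% of all tested genes, and 11 lower, a share near the 14.8% of all. With acetaminophen and exosomes against exosomes 8 of the 74 were apart and lower, against 5.37% of all tested genes, and 0 higher (median -0.36).

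The transcription factors that control these genes kept different orders across the libraries. FOXM1, which drives late cell cycle genes, was low in both arsenic libraries without copper. FOXM1 stood at 172, 177 and 108 CPM without acetaminophen, at 114, 136 and 78.8 CPM with it, and at 41.3, 57.02 and 126 CPM with arsenic. MYBL2, its partner on these promoters, was lowest in caffeine and at 5 µM arsenic. MYBL2 stood at 330.0, 297 and 134 CPM without acetaminophen, at 218, 374 and 392 CPM with it, and at 134, 267 and 263 CPM with arsenic. E2F1, which acts earlier, at the start of S phase, stood at its lowest at 5 µM arsenic. E2F1 stood at 81.1, 70.5 and 57.1 CPM without acetaminophen, at 68.1, 134 and 130.4 CPM with it, and at 15.7, 25.8 and 90.5 CPM with arsenic. FOXM1 had an adjusted p of 1 for acetaminophen and 0.650 for arsenic by edgeR.

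Replication and G1/S genes (38 tested) had 0 calls by edgeR or DESeq2 (7 of 152 tests over the 4 terms at an unadjusted p under 0.05). Of the 38, 23 were apart and lower, against 14.2% of all tested genes, and 3 apart and higher, against 16.7%, at 15 µM arsenic against control, with a median log2 ratio of -1.17. PCNA, the sliding clamp, was their lowest, at 25.5 CPM beside 242 CPM. Their highest, CCNE1, the cyclin that starts S phase, was at 62.4 CPM beside 22.2 CPM. CCND1, a G1 cyclin, was at 283 beside 189 CPM.

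The list of CDK inhibitors and p53-pathway growth arrest genes (17) was the only one of these lists with called genes. For arsenic, 5 of the 17 rose by the edgeR test and 0 fell, while 0.494% of all genes passed. CDKN1A (p21), an inhibitor of cyclin-dependent kinases, had a log2 fold change of 5.53 (SE 1.18, adjusted p 0.0189). CDKN1A stood at 9.65, 8.36 and 24.1 CPM without acetaminophen, at 9.83, 36.9 and 106 CPM with it, and at 10.2, 752 and 62.3 CPM with arsenic. Without the 15 µM library the log2 fold change was 2.62 (adjusted p 0.0735). The others were CDKN2D, GADD45A, GADD45B and SESN2, chosen after their values were seen. These calls depended on which libraries were fitted. Of the 5, 0 passed without the control, without acetaminophen alone or without acetaminophen with exosomes. In these fits the arsenic term called 0%, 0.0722% and 0% of all genes, in that order. All 5 passed without exosomes alone, without 5 µM arsenic or without arsenic with copper. Without caffeine alone or without acetaminophen with caffeine 4 passed, and without 15 µM arsenic 3 did. Under DESeq2 4 passed, and CDKN1A had an adjusted p of 0.0969. Without the control, CDKN1A had a log2 fold change of 6.95 (adjusted p 0.682 by edgeR).

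Some of the counts could hold reads of other genes, since the strand setting of the counting is not given. ANLN, CCNA2, CENPA, KIF20A, NUF2 and SPC25 (6 of 36) overlap another gene with at least 50 counts in the libraries. Named copies of 9 genes (AURKA, BUB1, CCNB2, CDC20, DLGAP5, MKI67, NEK2, PTTG1 and UBE2C) are listed, and none of these copies had more than 8 counts over all libraries. Of the genes lower in several comparisons, PLK1, CCNB1 and AURKB have neither such an overlap nor such a copy.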

How the data were processed

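Ribosomal RNA-depleted RNA of HuH-7 cells was measured in 9 libraries, 1 per condition. Each file the authors deposited holds whole-number read counts by Ensembl identifier for 1 library. Per the submitters' processing notes, TopHat2 2.0.13, HTSeq 0.6.1 and GRCh37 were used, and per the labels' protocols RNA came from the mirVana kit, rRNA removal from RiboMinus and libraries from the Ion Total RNA-Seq Kit v2. Annotation release and strand setting: not given in the sources used here. HTSeq summary lines, 42.26% to 70.27% of the reads, were left out of library sizes. Symbols were found for 52526 of 63677 identifiers, and 247 of 248 list entries matched.

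Genes reaching 1 CPM in 2 or more libraries were kept (18237) and scaled by TMM. edgeR 4.0.16 in R 4.3.3 fitted additive terms for acetaminophen, exosomes, caffeine and arsenic (5 coefficients, 4 residual degrees of freedom, common dispersion 0.2835), with calls at an adjusted p (Benjamini-Hochberg) below 0.05. The SE is the log2 fold change divided by the square root of the F statistic. The fit was tested on simulated data. For 12 library pairs, CPM ratios were computed with Python 3.11.15 and scipy 1.17.1. Trends of log2 ratio with GC content and length were removed by lowess (statsmodels 0.14.6, fraction 0.3). The alternatives were DESeq2 1.42.0 and its size factors, no count filter, coding genes only, leaving out each library in turn, another fold (1.5) or prior count (2.0), and the trends removed. In the control a level of 175 CPM (PLK1) has a 95% counting interval of 150.1 to 202 CPM.

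The members and gene lists were chosen with earlier results of these data known. All 36 may be named, with values in every library for 20 fixed members and for members at an extreme of a pair. Outside them, 6 fixed genes and the extremes of each list in a pair are named, and any other gene is said to be chosen after its values were seen.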

Additional observations from a re-analysis of the deposited data

Results flagged for a closer look

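CCNA2, DLGAP5, NUF2 and SPC25 were apart from the control in opposite directions at the 2 arsenic doses, higher at 5 µM and lower at 15 µM. The log2 ratio to the control at 15 µM minus that at 5 µM was -3.22 for CCNA2, -3.64 for DLGAP5, -2.63 for NUF2 and -3.17 for SPC25. CCNA2 stood at 78.2 CPM in the control, 189.7 CPM at 5 µM and 20.1 CPM at 15 µM, and SPC25 at 24.1, 50.6 and 5.38 CPM. Each dose has 1 library and both share the control, so the difference was not tested. The library at 5 µM is also the one with 35.5% of its counts on small nucleolar RNA genes. With the trends of GC content and length removed, SPC25 alone of the 4 stayed apart in opposite directions, with log2 ratios of 1.06 at 5 µM and -1.47 at 15 µM. DLGAP5 (1.80 and -0.99) stayed apart at 5 µM only, CCNA2 (0.91 and -1.78) at 15 µM only, and NUF2 (0.98 and -0.82) at neither dose.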

How the results depend on the processing

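No paired analysis was possible because no condition has numbered replicates to pair; the 3 acetaminophen pairs enter the additive fit through its exosome and caffeine terms. Under the alternatives 1 value turned its sign and 1 newly passed the threshold. The number of members called for acetaminophen ran from 0 to 1 over the libraries left out in turn, with PLK1 called without 5 µM arsenic, and PLK1's adjusted p ran from 0.0202 to 1 over all alternatives. For exosomes, caffeine and arsenic 0 members were called whichever library was left out. With the trends of GC content and length removed, the number of members apart was 7 in place of 13 for acetaminophen against control, 0 in place of 4 for exosomes, 3 in place of 6 for caffeine, 11 in place of 19 for caffeine added to acetaminophen, 5 in place of 11 for exosomes added to acetaminophen, 11 in place of 22 for 5 µM arsenic, and 10 in place of 16 for copper added. With 1.5 times in place of 2 times it was 25 in place of 15 for acetaminophen with exosomes against exosomes, 18 in place of 5 for the pair with caffeine, 12 in place of 4 for exosomes, 20 in place of 11 for exosomes added to acetaminophen, and 9 in place of 2 for arsenic with copper. With the trends removed, the median log2 ratio turned from 0.26 to -0.28 for acetaminophen against control. For caffeine it moved away from 0, from -0.40 to -0.66. It came closer to 0 with exosomes on both sides (-0.87 to -0.67) and for exosomes added to acetaminophen (-0.65 to -0.25). The same held for 5 µM arsenic (0.60 to 0.16), caffeine added to acetaminophen (-0.93 to -0.42), copper added (-0.31 to -0.0033) and exosomes (0.36 to 0.13). DESeq2's size factors gave -0.58 for caffeine. These size factors moved all log2 ratios of a pair by -0.18 to 0.15, and by -0.18 for caffeine against control. The cause of these moves was not tested beyond the construction of each alternative. Depth limits CENPA most, with 5 counts in the control, and PTTG1 at 11 counts in acetaminophen alone. With 1 library per condition, culture-to-culture variation enters no interval printed here.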
